A study of Mus musculus with 18 samples.

Results

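The genes described here are 32 genes of cholesterol and fatty acid synthesis. They form a list of textbook enzymes of these pathways and of regulators around the sterol regulatory element-binding proteins (SREBPs). Some, such as Scap and Insig2, are listed as parts of SREBP control. The list is given by gene name and applies no threshold to measured values, though it was drawn up with earlier results of these data known. All 32 were found among the 43629 gene IDs of the count table and among the 15671 genes with enough counts to be tested. They comprise 7 genes of the mevalonate pathway, 3 that lead from squalene to lanosterol, 8 that lead from lanosterol to cholesterol, 6 of sterol sensing, SREBP control and sterol transport, and 8 of fatty acid synthesis. RNA came from cultures of mouse cortical neurons that received a lentivirus after 7 days in vitro and were harvested 10 days later. All 3 groups, of 6 libraries each, carried an overexpression construct: mSc, the fluorescent protein mScarlet as a control; Psmb5, the β5 subunit of the constitutive proteasome; and Psmb8, the β5i subunit of the immunoproteasome. The sources used here do not give the promoter of the constructs, or the strain and age of the animals. One treatment text in the labels speaks of an Ifng construct for every sample, which differs from the constructs named in the treatment tags. In each group the titles number the libraries 1 to 6, without a word on what a number stands for or on whether the libraries came from separate animals. P-values therefore measure how far these libraries spread, and that spread may be technical.

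Cells make cholesterol from acetyl-CoA through mevalonate, isoprenoid units, squalene and lanosterol. When sterols in the membrane of the endoplasmic reticulum are low, SCAP carries SREBP precursors to the Golgi. There proteases free the part that enters the nucleus and activates genes of lipid synthesis. When sterols are high, INSIG proteins hold SCAP back. SREBP2, the product of Srebf2, mainly drives cholesterol synthesis and SREBP1, the product of Srebf1, mainly fatty acid synthesis. The brain makes its own cholesterol, since lipoproteins of the blood do not pass the blood-brain barrier, and both neurons and glia hold the enzymes.

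SREBPs bind sterol response elements and act with the factors NF-Y, which binds CCAAT, and Sp1, which binds GC boxes. Promoters are shown for 3 genes whose levels differed by more than 2-fold between replicate numbers, as described below, and for Lss, whose levels differed little. They are the 250 bases before the RefSeq start on GRCm38.p6, written 5′ to 3′ on the gene's strand, with matches to TCACNCCAC and to CCAAT on either strand in capitals. The Hmgcs1 promoter lies at chr13:119690101-119690350, plus strand, that of Srebf2 at chr15:82147019-82147268, plus strand, that of Msmo1 at chr8:64733579-64733828, minus strand, and that of Lss at chr10:76531355-76531604, plus strand.
Hmgcs1: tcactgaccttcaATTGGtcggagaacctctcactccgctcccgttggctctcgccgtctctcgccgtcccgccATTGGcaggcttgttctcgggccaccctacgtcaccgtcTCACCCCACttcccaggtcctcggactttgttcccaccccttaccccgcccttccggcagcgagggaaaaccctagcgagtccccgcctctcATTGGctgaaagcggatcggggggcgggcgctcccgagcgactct
Srebf2: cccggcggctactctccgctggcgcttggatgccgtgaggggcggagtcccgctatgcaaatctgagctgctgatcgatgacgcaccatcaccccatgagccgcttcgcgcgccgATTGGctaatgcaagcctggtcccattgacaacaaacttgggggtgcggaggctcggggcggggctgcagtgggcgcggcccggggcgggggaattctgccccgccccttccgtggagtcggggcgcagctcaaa
Msmo1: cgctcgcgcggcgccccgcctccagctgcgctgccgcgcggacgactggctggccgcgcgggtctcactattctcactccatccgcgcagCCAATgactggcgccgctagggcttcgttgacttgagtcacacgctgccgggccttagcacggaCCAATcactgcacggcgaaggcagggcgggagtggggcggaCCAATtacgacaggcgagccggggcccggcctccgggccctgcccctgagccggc
Lss: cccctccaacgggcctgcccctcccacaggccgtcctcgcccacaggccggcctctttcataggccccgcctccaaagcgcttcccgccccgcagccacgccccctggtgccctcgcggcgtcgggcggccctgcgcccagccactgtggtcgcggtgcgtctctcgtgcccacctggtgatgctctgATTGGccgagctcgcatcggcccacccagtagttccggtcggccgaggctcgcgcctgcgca
Hmgcs1 held a TCACNCCAC match that began 137 bases before the start, and CCAAT on the opposite strand that began 237, 176 and 45 bases before it. Srebf2 held CCAAT on the opposite strand 135 bases before its start, Msmo1 on the same strand at 160, 96 and 55 bases, and Lss on the opposite strand at 62 bases.

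RefSeq promoters, each with 250 bases before and 50 after the start, were matched for 25 of the 32 genes. CCAAT was present on either strand in 20 of these 25, against 41.1% of the 27025 genes of the table. The GC box GGGCGG was present in 21 of 25, against 38.2%, and the E-box CACGTG in 5 of 25 (Dhcr7, Hsd17b7, Insig1, Sc5d and Scap), against 8.09%. TCACNCCAC, which contains the narrower TCACCCCAC, was found in Hmgcs1 alone among the 25, against 1.44% of all genes. The 27025 genes were not limited to the 15671 tested here, and genes with several starts, such as Dhcr7, had several windows. These are matches of letters in a window and not sites of binding.

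Per kilobase of exon, the most abundant of the 32 transcripts in the mSc libraries was Scd2, the main stearoyl-CoA desaturase of brain, at 359.8 ± 211 CPM (counts scaled to library size) per kb (SD, n = 6). Hmgcs1, the synthase that makes HMG-CoA, followed at 96.1 ± 43.5, Srebf2 at 65.5 ± 23.0, and the fatty acid desaturases Fads2 and Fads1 at 61.8 ± 35.9 and 59.9 ± 25.0. These 4 overlapped in their ranges over the 6 libraries. The lowest was Idi1, an isopentenyl diphosphate isomerase, at 3.71 ± 1.74 CPM per kb. Scd1, at 30.1 ± 33.2, had an SD above its mean. Scd1 and Scd2 lie near each other on chromosome 19 of GRCm38 (positions 44394455 to 44407879 and 44293674 to 44306864), as do Fads1 and Fads2 (10182888 to 10196877 and 10062765 to 10101746). The close relatives Scd3, Scd4 and Acat3 were at 0.905, 0.844 and 1.54 CPM, low beside Scd1, Scd2 and Acat2. The relatives of Fads1 and Fads2 were higher, with Fads3 at 67.9 and Fads6 at 9.91 CPM.

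The 18 libraries held 15337511 to 21074229 counts. Psmb5 was at 42.9 ± 1.49 CPM in mSc and 451 ± 113 in its own group, and Psmb8 at 6.28 ± 7.76 and 887 ± 198 (SD, n = 6), as labelled. Libraries of the same number resembled each other across groups: over all tested genes the deviations from the group means correlated with r from 0.4468 to 0.7286 in the 18 same-numbered pairs. Marker lists were summed per library. Neuron markers (14 of 14 tested) summed to 5051 to 6392 CPM. Astrocyte markers (16 of 17 tested) lay at 4870.4 to 5755 CPM in number 1 and between 1671 and 2343 in the other 15 libraries. Oligodendrocyte lineage markers (12 of 15 tested) had means of 913, 608, 350.5, 916, 620.3 and 302 CPM in numbers 1 to 6. The sums of the cycling markers (10 of 10 tested) were 68.5, 73.6, 48.0, 123, 78.8 and 37.5. Only 3 of 13 microglial and 5 of 13 vascular markers had enough counts to be tested, with sums of 33.3 to 51.1 and 13.2 to 53.3 CPM, and Cldn5 of endothelial cells had no count in any library.

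The largest differences in cholesterol and fatty acid genes were between replicate numbers, not between the overexpression groups. All 32 genes differed between the 6 numbers at an adjusted p under 0.05 (edgeR quasi-likelihood F test with group in the model, Benjamini-Hochberg over 15671 genes), and so did 64.3% of all tested genes. The median log2 range between the means of the numbers was 1.18 over the 32 genes and 0.417 over all tested genes. Numbers 2 and 5 had the lowest 2 means in 30 of the 32 genes, an order found in 16.6% of all genes; the exceptions were Srebf1 and Tm7sf2. In 24 of the 32 genes all 6 libraries of numbers 2 and 5 lay below all 12 others, as in 3.97% of all genes. The numbers were set apart here after their values were seen, so these counts are a description.

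**Figure D1:**
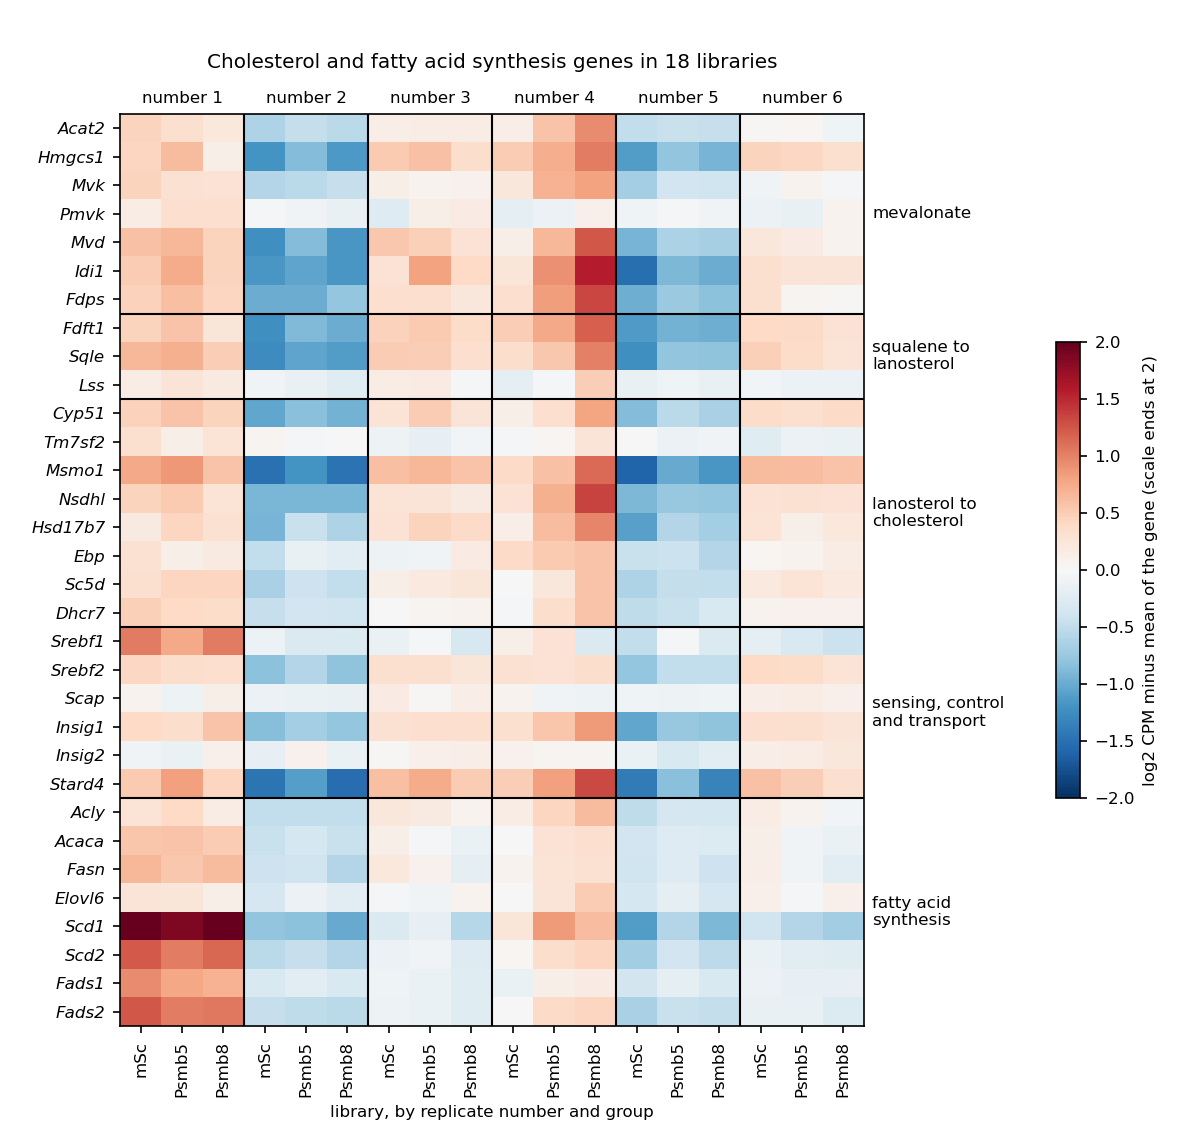
Level of each of the 32 genes (rows, by role) in each of the 18 libraries (columns, by replicate number and group), as log2 CPM minus the mean of the gene; red is above and blue below the mean, and the colour scale ends at 2. Numbers 2 and 5 are blue in most rows, number 1 is most strongly red in Scd1, Scd2, Fads1, Fads2 and Srebf1, and the Psmb8 library of number 4 is the highest of the 18 in 20 genes.

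In the mevalonate pathway, Hmgcs1 was the most abundant gene. Its levels in the mSc, Psmb5 and Psmb8 libraries were 552, 633 and 443 CPM in number 1, 179, 223 and 185 in number 2, 586, 612 and 523 in number 3, 585, 676 and 829 in number 4, 189, 238 and 216 in number 5 and 559, 543 and 509 in number 6. The 6 libraries of numbers 2 and 5 were all lower than any other library, and the means of numbers 4 and 2 differed 3.56-fold (log2 SD within numbers 0.19, adjusted p = 2.18e-11). Idi1, which interconverts the isoprenoid building blocks, ranged from 6.07 CPM in number 2 to 26.7 in number 4, or 4.40-fold, with a within-number log2 SD of 0.33 that was the widest of the 32. Mvd, the mevalonate diphosphate decarboxylase, and Fdps, the farnesyl diphosphate synthase, differed 3.53-fold and 3.50-fold between the same numbers (adjusted p = 6.36e-08 and 9.26e-09). Both had all 6 libraries of numbers 2 and 5 below the others: 12.4 to 18.6 against 30.4 to 68.2 CPM for Mvd, and 22.5 to 26.7 against 45.6 to 113 for Fdps. The mean of number 4 included a high Psmb8 library. In mSc, Psmb5 and Psmb8 of that number Idi1 was at 15.6, 25.1 and 39.4 CPM, and Mvd at 31.2, 45.9 and 68.2. For Idi1 and Mvd the mSc library of number 4 lay below those of numbers 1, 3 and 6. Acat2, the cytosolic thiolase of the first step, and Mvk, the mevalonate kinase, each differed 2.18-fold. Pmvk, the phosphomevalonate kinase between Mvk and Mvd, stood apart from them: its number means were 45.8 CPM in number 1 and 35.5 to 38.3 in the other 5. Its adjusted p of 0.00366 was 0.860 without number 1.

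**Figure D2:**
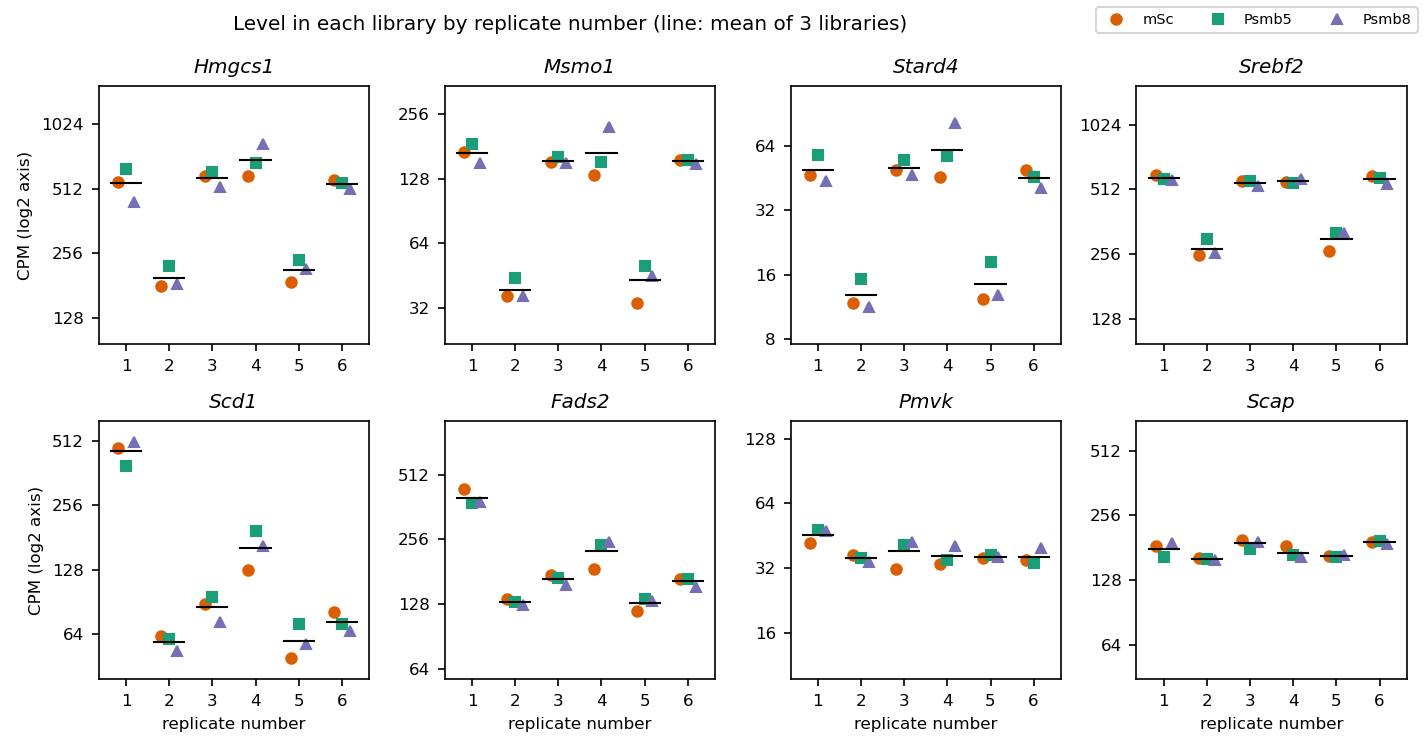
Level in CPM (vertical log2 axis, the same 16-fold span in each panel) of 8 genes in each library against replicate number, with circles for mSc, squares for Psmb5, triangles for Psmb8 and lines at the mean of 3 libraries. Hmgcs1, Msmo1, Stard4 and Srebf2 are low in numbers 2 and 5, Scd1 and Fads2 are high in number 1, and Pmvk and Scap differ little.

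Fdft1 and Sqle, the squalene synthase and squalene epoxidase, differed 3.66-fold and 3.48-fold between numbers 4 and 2 (adjusted p = 4.43e-11 and 1.04e-10). Fdft1 was at 35.2 to 44.9 CPM in the 6 libraries of numbers 2 and 5 and 97.9 to 189 in the other 12, and Sqle at 70.4 to 97.3 and 203 to 337. In number 4 Sqle was at 214, 243 and 337 CPM in mSc, Psmb5 and Psmb8, against 267, 276 and 235 in number 1. The exons of Fdft1 overlap those of Ctsb on the opposite strand, which was at 721 CPM, and the sources used here do not give the strand setting of the counting. Lss, the lanosterol synthase that acts next, had number means of 58.0 to 73.9 CPM, a 1.27-fold range. Its adjusted p of 0.0269 was above the threshold in 5 of the alternative fits, which left out group Psmb5 (0.189) or number 1 (0.143), 2 (0.0753), 5 (0.0525) or 6 (0.0514).

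Of the genes that turn lanosterol into cholesterol, Msmo1, a sterol methyl oxidase, varied most. Its levels in mSc, Psmb5 and Psmb8 were 36.2, 44.2 and 36.5 CPM in number 2 and 33.7, 50.4 and 45.3 in number 5. They were 171, 185 and 151 in number 1, 154, 161 and 152 in number 3, 133, 153 and 223 in number 4 and 157, 156 and 150.4 in number 6. The highest library of numbers 2 and 5 thus lay below the lowest of the rest, and the number means differed 4.35-fold (within-number log2 SD 0.22, adjusted p = 1.32e-11). Nsdhl, which acts with Msmo1 to remove sterol methyl groups, differed 3.39-fold (adjusted p = 3.50e-08), and its highest library, Psmb8 of number 4 at 53.8 CPM, compared with 25.7 and 34.6 in mSc and Psmb5 of that number. Hsd17b7, a reductase of the same demethylation, and Cyp51, the lanosterol demethylase, differed 2.62-fold and 2.69-fold. The ranges of the later enzymes Ebp, Sc5d and Dhcr7 were smaller, at 1.98-fold, 1.90-fold and 1.78-fold, but in each all 6 libraries of numbers 2 and 5 were below the other 12. Tm7sf2, a sterol reductase, had another order, with number 1 highest at 52.4 CPM and number 6 lowest at 39.6. Its exons overlap those of Vps51 on the same strand, and those of Cyp51 overlap Akap9 on the opposite strand, so some of their counts may belong to the neighbour.

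Among the regulators, Srebf2 and Insig1 followed the enzymes, and Scap and Insig2 varied little. Srebf2 was at 253 to 321 CPM in the libraries of numbers 2 and 5 and 531 to 597 in the other 12, a 2.14-fold range of number means with a within-number log2 SD of 0.094 (adjusted p = 9.46e-12). Insig1, itself an SREBP target, lay at 56.2 to 72.1 CPM against 138 to 209, a 2.74-fold range (adjusted p = 8.17e-12). Stard4, which carries cholesterol between membranes, differed 4.79-fold, second to Scd1 in the list (adjusted p = 3.42e-10). Its mSc, Psmb5 and Psmb8 levels were 11.9, 15.2 and 11.3 CPM in number 2 and 12.3, 18.3 and 12.8 in number 5, and 40.5 to 81.1 in the other libraries. Number 4 had the highest mean of Stard4, from 45.6, 57.2 and 81.1 CPM in mSc, Psmb5 and Psmb8. The fold range and its rank thus include the high Psmb8 library. Srebf1 had a different pattern: it was at 272, 223 and 271 CPM in number 1 and 93.9 to 161 in the 15 other libraries, with number means of 107 to 138. Srebf1 overlaps Rai1 on the opposite strand, which was at 136 CPM. Scap had number means of 161 to 192 CPM, the smallest range of the 32 at 1.19-fold, and Insig2 of 24.3 to 31.7. The adjusted p of Insig2 was 0.00369 and 0.0684 without number 5.

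The genes of fatty acid synthesis and desaturation were led by number 1. Scd1 was at 474, 392 and 506 CPM in the mSc, Psmb5 and Psmb8 libraries of number 1 and at 128, 195 and 165 in those of number 4. The other 12 libraries held 49.7 to 96.2 CPM, below every library of numbers 1 and 4. The means of numbers 1 and 2 differed 7.73-fold, the largest range of the 32 (adjusted p = 9.60e-14). Scd2 had a number mean of 3978 CPM in number 1, 2202 in number 4 and 1252 to 1637 in the rest, a 3.18-fold range. Fads2 and Fads1, desaturases of polyunsaturated fatty acids, differed 3.10-fold and 2.13-fold. In Acaca (acetyl-CoA carboxylase), Fasn (fatty acid synthase), Fads1, Fads2, Scd1, Scd2 and Srebf1, 7 of the 32 genes, all 3 libraries of number 1 were above the 15 others, as in 5.96% of all genes. Acly, which supplies cytosolic acetyl-CoA, and Elovl6, which lengthens palmitate, had their highest mean in number 4, at 248 and 111 CPM against 225 and 106 in number 1. Neither was called between these 2 numbers. In mSc both were lower in number 4 than in number 1, at 206 against 225 and 91.8 against 110 CPM. In Psmb5 and Psmb8 both were higher in number 4.

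All 15 pairs of numbers were then compared within the same fit, a step added after the data were seen and with p-values not adjusted over the pairs. Number 1 was higher than number 2 in 31 of the 32 genes (19.5% of all genes) and than number 5 in 30 (17.8%). Number 4 was higher than number 2 in 26 (19.4%) and than number 5 in 28 (20%). Number 3 was higher than numbers 2 and 5 in 25 (18.2%) and 27 (15%), and number 6 in 26 (19.4%) and 26 (17.4%). No gene of the list was lower in these 8 comparisons. None of the 32 differed between numbers 2 and 5, or between 3 and 6, pairs that also differed in few genes overall (edgeR, 3.13% and 0.549%). An unadjusted p under 0.05 was reached by 2 of 32 genes between numbers 2 and 5 and by 0 between 3 and 6, and a p above the threshold does not show equal levels.

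Number 1 against number 4 gave calls in both directions. Acaca, Fads1, Fads2, Fasn, Pmvk, Scd1, Scd2 and Srebf1 were higher in number 1 (17.2% of all genes). Ebp, Fdft1, Fdps, Hmgcs1 and Nsdhl were higher in number 4 (14.1%). In mSc, however, Nsdhl and Fdps were lower in number 4 than in number 1, at 25.7 against 28.8 and 56.5 against 61.5 CPM. They were higher there in Psmb5 and in Psmb8, in Psmb8 at 53.8 against 25.4 and 113 against 60.3. Ebp, Fdft1 and Hmgcs1 were higher in number 4 in each group. For Scd1 the log2 difference was 1.51 (SE 0.13), and for Hmgcs1 it was -0.37 (SE 0.11). Number 1 was higher than number 3 in 11 genes (16.7%) and than number 6 in 13 (18%), and Insig2 was lower in 1 than in 6 (15.8%). Number 4 was higher than number 3 in 16 genes (13.1%) and than number 6 in 22 (13.6%), with Scap lower in number 4 in both (12.7% and 13.1%). Of the 22, Acaca, Acly, Dhcr7, Fads1, Fasn, Hsd17b7, Idi1, Insig1, Mvd, Nsdhl and Stard4 were lower in number 4 within mSc. Of the 16, Acaca, Acat2, Acly, Dhcr7, Fads1 and Fdps were lower there within mSc. Some of these mSc differences were small, and the remaining called genes were higher in number 4 within mSc.

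**Figure D3:**
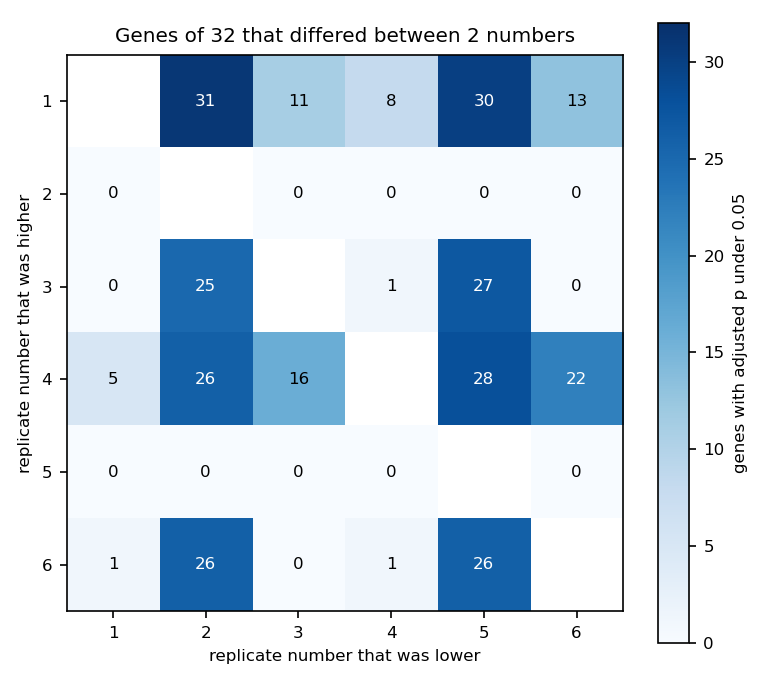
Count of the 32 genes with an adjusted p under 0.05 that were higher in the replicate number of the row than in that of the column. The rows of numbers 2 and 5 hold 0 throughout, and their columns hold 25 to 31 in the rows of the other 4 numbers.

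Markers of other cell types moved with some of these differences, and their part in them was not tested. The summed astrocyte markers, whose mean was 5175 CPM in number 1 and 1839 to 2134 in the others, were high where Scd1, Scd2, Fads1, Fads2 and Srebf1 were high. Numbers 2 and 5, where most of the sterol genes were lowest, had 1839 and 1893 CPM of astrocyte markers. Numbers 3 and 6 had 1978 and 1964. Oligodendrocyte lineage markers were highest in numbers 1 and 4, where Scd1, Scd2 and Fads2 were highest, at 913 and 916 CPM. They were at 608 and 620.3 in numbers 2 and 5 and lower, at 350.5 and 302, in numbers 3 and 6. Cycling markers were highest in number 4, at 123 CPM, and at 37.5 to 78.8 in the other numbers. Neuron markers were also lowest in numbers 2 and 5, at 5285 and 5133 CPM against 5675 and 5792 in numbers 3 and 6. In bulk RNA, fewer cells of a type and less RNA per cell cannot be told apart.

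**Figure D4:**
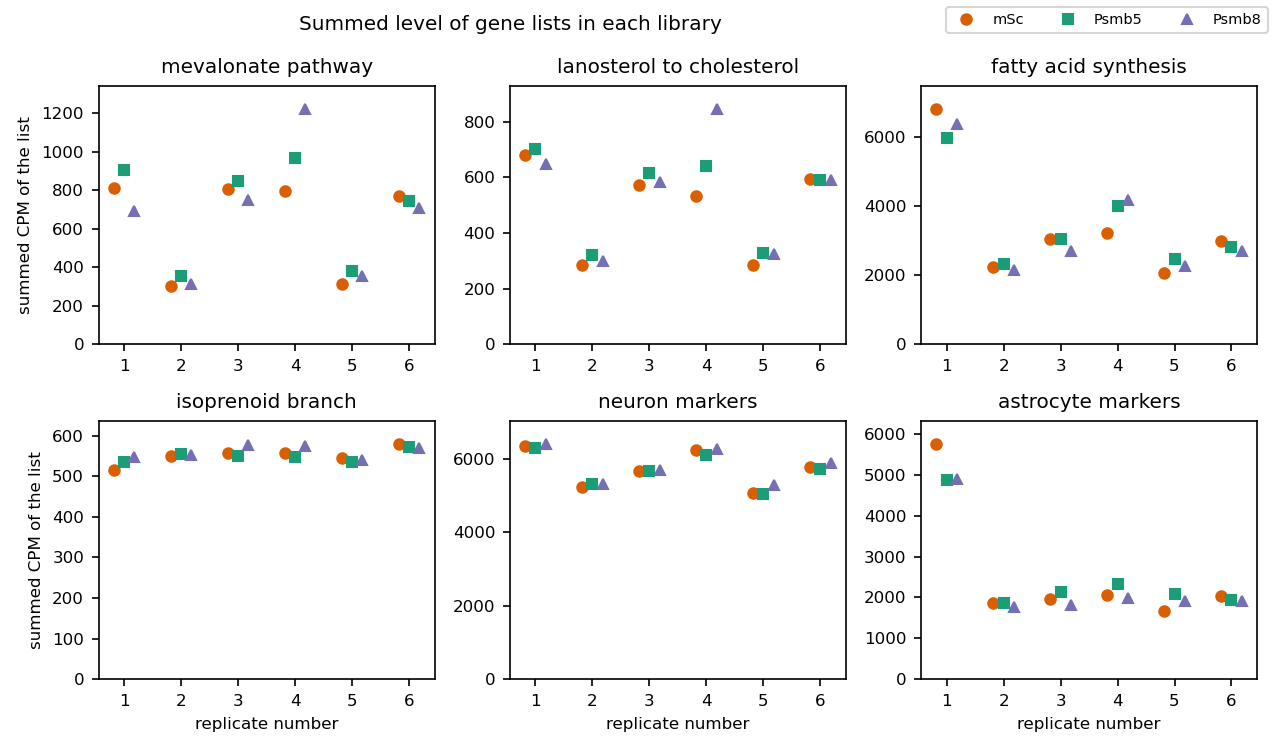
Summed CPM of 3 gene groups described here, the isoprenoid branch and neuron and astrocyte markers in each of the 18 libraries against replicate number; every axis starts at 0. The sterol groups are low in numbers 2 and 5, the fatty acid group and the astrocyte markers are highest in number 1, and the isoprenoid branch lies at 515 to 579 CPM in all libraries.

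Genes around the pathway that are not among the 32 had smaller median ranges than the 1.18 of the list, at 0.22 to 0.60 on the log2 scale in 4 lists. In the isoprenoid branch, which leads from farnesyl diphosphate to dolichol, ubiquinone and prenylated proteins, 6 of 14 genes differed between numbers, against 64.3% of all tested genes; the 4 with the smallest p were Dolk, Icmt, Fntb and Rce1, at 1.38-fold, 1.18-fold, 1.25-fold and 1.28-fold. Of 14 genes of SREBP processing and degradation of sterol enzymes 9 differed, a share equal to that of all tested genes, led by the ubiquitin ligases Rnf145 (1.54-fold) and Marchf6 (1.43-fold), then Faf2 (1.33-fold). Numbers 2 and 5 had the lowest 2 means in 9 of these 14 genes, in 2 of 14 of the isoprenoid branch, in 6 of 17 of sterol trafficking and in 9 of 26 of other lipid synthesis, against 16.6% of all genes. Of 17 genes of sterol trafficking, export and turnover 14 differed, against the same 64.3% of all genes, among them Lpcat3, a phospholipid acyltransferase (1.68-fold), the lysosomal cholesterol carrier Npc2 (1.44-fold), the sterol transporter Gramd1b (1.26-fold) and the cholesterol esterifying enzyme Soat1 (1.57-fold). In other fatty acid and lipid synthesis 23 of 26 differed, again against 64.3%, and number 1 was highest in 16. The elongase Elovl5 (2.03-fold), the acyl-CoA synthetase Acsl3 (2.44-fold), the fatty acid-binding protein Fabp7 of glial and radial glial cells (2.94-fold) and Mid1ip1, which activates acetyl-CoA carboxylase (2.15-fold), all peaked in number 1.

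Psmb5 overexpression gave no called difference from mSc in any of the 32 genes, with or without the replicate number as a block (edgeR, 0.00638% of all genes called in both fits). With the block the log2 differences lay above 0 in 29 of 32 genes, with a median of 0.087, against 51% of all genes and a median of 0.0018. An unadjusted p under 0.05 was reached by 6 of 32, against 6.87% of all genes. Hsd17b7 had the smallest p, with a log2 difference of 0.27 (SE 0.088, adjusted p = 0.591), and was higher in Psmb5 in 5 of 6 same-numbered pairs. Its lowest, median and highest levels were 12.7, 30.1 and 33.1 CPM in mSc and 17.99, 32.8 and 41.4 in Psmb5; the ranges of the groups overlapped. Sc5d followed at 0.14 (SE 0.055, adjusted p = 0.624), higher in 6 of 6 pairs, and Idi1 at 0.34 (SE 0.14, adjusted p = 0.653), higher in 5 of 6. Without the block, Pmvk, Scap and Hsd17b7 had the smallest p. Their log2 differences were 0.11 (SE 0.094, adjusted p = 0.9999), -0.075 (SE 0.067, adjusted p = 0.9999) and 0.25 (SE 0.30, adjusted p = 0.9999). The median log2 difference of the 32 genes in same-numbered pairs was 0.25 in number 4, 0.19 in number 5 and -0.048 in number 6, with the other 3 between. Without the block the median was 0.081, and it was below 0 when mSc library 2 (-0.018), mSc library 5 (-0.016) or Psmb5 library 4 (-0.0039) was left out and was 0.22 without mSc library 1. These fits had no block, so leaving out 1 library made the groups unequal over the replicate numbers, between which these genes differed. Such shifts therefore cannot be read as a change in the Psmb5 difference alone. DESeq2, with or without the block, also called none of the 32 in any of the 3 comparisons of groups, and without the block edgeR gave none of them an unadjusted p under 0.05, against 0.944%, 2.17% and 1.33% of all genes in Psmb5 against mSc, Psmb8 against mSc and Psmb8 against Psmb5.

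Psmb8 overexpression likewise gave no called difference from mSc in any of the 32 genes. Without the block 0.00638% and with it 0.325% of all genes were called. With the block 26 of 32 genes lay above 0 (50.4% of all genes), with a median of 0.098 against 0.00081 over all genes, and 8 of 32 had an unadjusted p under 0.05 (10.7% of all genes). Sc5d, a sterol desaturase near the end of cholesterol synthesis, had a log2 difference of 0.19 (SE 0.055, adjusted p = 0.175) and was higher in 6 of 6 pairs. The pairs were uneven, with a log2 difference of 0.0013 in number 6, which is nearly none, and of 0.58 in number 4. Its lowest, median and highest levels were 37.6, 61.1 and 73.8 CPM in mSc and 41.8, 68.7 and 87.4 in Psmb8. Hsd17b7 had 0.28 (SE 0.088, adjusted p = 0.201) and Pmvk 0.17 (SE 0.059, adjusted p = 0.272), each higher in 5 of 6 pairs. Without the block the smallest p were those of Pmvk, Hsd17b7 and Idi1. Their log2 differences were 0.17 (SE 0.094, adjusted p = 0.9999), 0.30 (SE 0.30, adjusted p = 0.9999) and 0.41 (SE 0.46, adjusted p = 0.9999). By role, all 7 mevalonate genes and all 8 from lanosterol to cholesterol lay above 0 with the block, and 4 of 8 fatty acid genes did; Fasn and Srebf1 were at -0.12 (SE 0.058, adjusted p = 0.459) and -0.13 (SE 0.079, adjusted p = 0.601). The comparisons of Psmb5 and of Psmb8 with mSc use the same 6 control libraries.

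One library weighed on the Psmb8 values. The Psmb8 library of number 4 was the highest of the 18 in 20 of 32 genes, against 11.4% of all genes, while its Psmb8 level of 796 CPM was within the 546 to 1056 of its group. In number 4 the median ratio over the 32 genes was 1.43 for Psmb8 to mSc and 1.19 for Psmb5 to mSc, and 29 of 32 genes were above 1 in each; over all genes the medians were 1.003 and 1.003. Idi1 had the highest Psmb8 to mSc ratio there, at 2.52, from 15.6 to 39.4 CPM. The median log2 difference of Psmb8 from mSc was -0.084, 0.017, -0.081, 0.52, 0.16 and -0.069 in numbers 1 to 6. Without this library the median over the list turned from 0.10 to -0.054 in the fit without the block and from 0.098 to -0.0055 with it.

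Psmb8 and Psmb5 overexpression did not differ in a called way in any of the 32 genes (0.0128% of all genes called without and 0.0383% with the block). With the block 16 of 32 genes lay above 0 (49.9% of all genes) and none had an unadjusted p under 0.05, against 7.64% of all genes. The smallest p were those of Hmgcs1, Srebf1 and Tm7sf2. Their log2 differences were -0.15 (SE 0.076, adjusted p = 0.674), -0.16 (SE 0.080, adjusted p = 0.690) and 0.092 (SE 0.049, adjusted p = 0.707). Without the block they were those of Tm7sf2, Pmvk and Scap. These had log2 differences of 0.095 (SE 0.091, adjusted p = 0.9998), 0.063 (SE 0.094, adjusted p = 0.9998) and 0.042 (SE 0.067, adjusted p = 0.9998). When the Psmb8 library of number 4 was left out of the blocked fit, chosen with the values in view, Stard4 was called lower in Psmb8, with a log2 difference of -0.34 and an adjusted p of 0.0368. In the blocked edgeR fit of all libraries its log2 difference was -0.15 (SE 0.11, adjusted p = 0.8065). Stard4 was lower in Psmb8 than in Psmb5 in 5 of 6 same-numbered pairs, for example at 43.9 against 57.7 CPM in number 1. The library left out was that of the pair where it was higher, at 81.1 against 57.2 in number 4. With the block, the 95% intervals of all 32 genes in this comparison lay between -0.38 and 0.31 on the log2 scale. No gene of the 4 surrounding pathway lists was called in the 3 comparisons of groups with edgeR in either fit. With the block an unadjusted p under 0.05 was reached by 0 to 3 genes of a list in Psmb5 against mSc (6.87% of all genes). The counts were 0 to 5 in Psmb8 against mSc (10.7%) and 0 to 3 in Psmb8 against Psmb5 (7.64%). The 5 were of the 26 genes of other fatty acid and lipid synthesis. The counts of 3 in Psmb8 against Psmb5 were of 17 sterol trafficking, 14 isoprenoid and 26 other lipid genes.

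**Figure D5:**
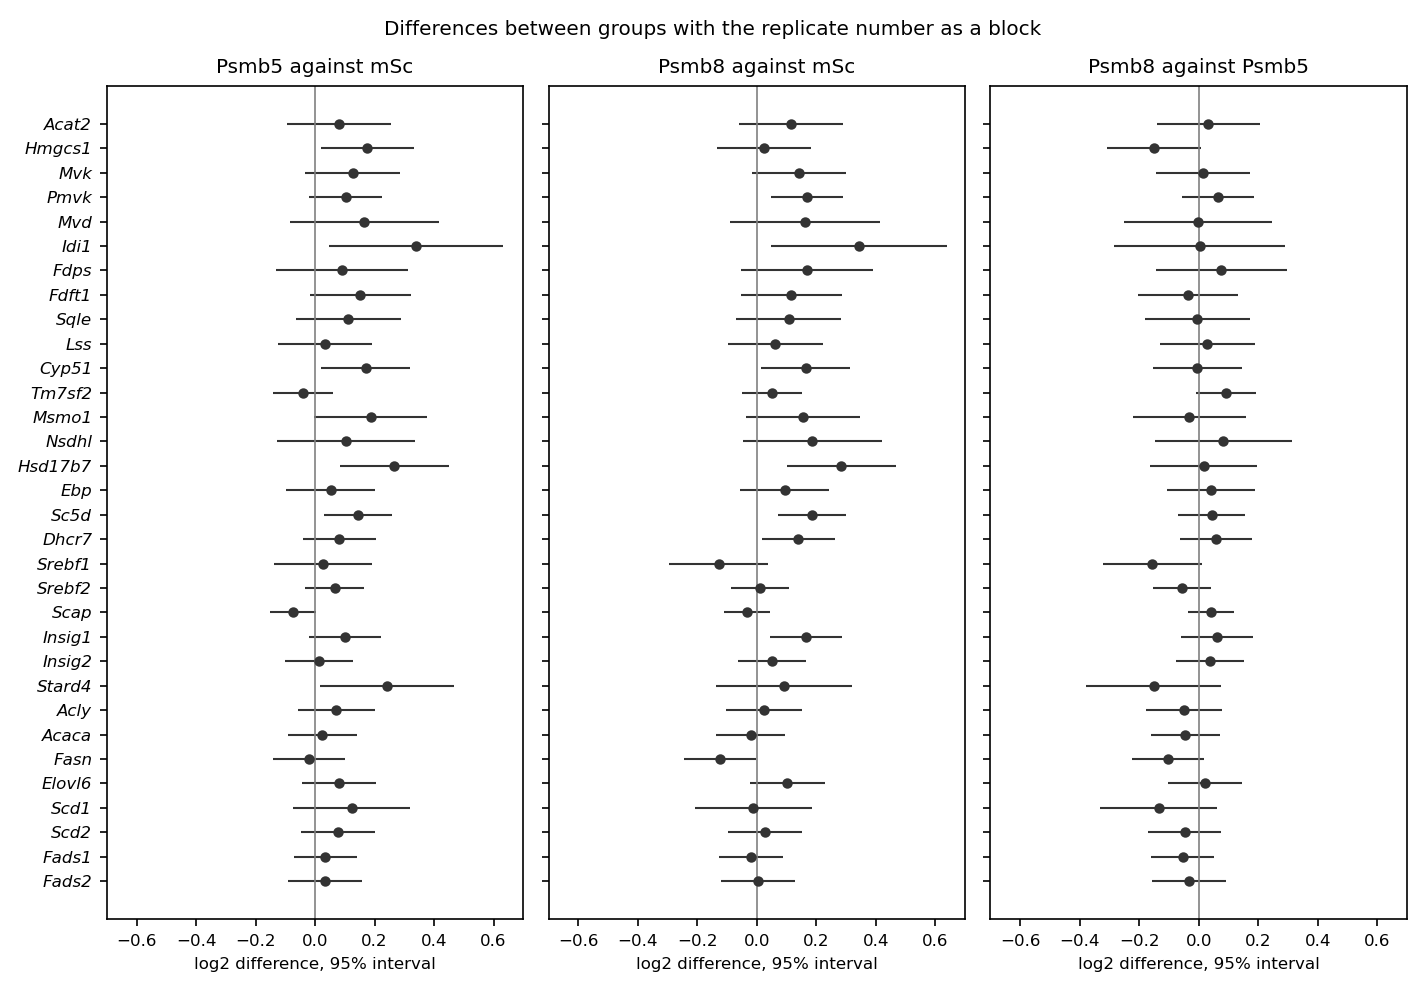
Log2 difference of each of the 32 genes in the 3 comparisons of groups, with the replicate number as a block; points are estimates and bars 95% intervals, not adjusted for the number of genes. Points lie above 0 in 29 and 26 of 32 genes in the comparisons with mSc and in 16 of 32 in that of Psmb8 with Psmb5, and no gene passed the adjusted threshold.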

How the data were processed

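Poly(A)-enriched RNA of 18 libraries from mouse cortical neuronal cultures was sequenced, per the labels' protocols. What the authors deposited is a single table of raw counts, with a row for each Ensembl gene and a column for each library, not pooled and not normalized. The submitters' processing notes name STAR 2.4, DESeq2 and both GRCm39 and mm10, without their roles. Gene counter, strand setting and annotation: not given in the sources used here. Symbols were found for 42462 of 43629 IDs, and each column carried the title of its sample. Exon lengths and coordinates come from GENCODE's annotation of GRCm38, which may not be the build of the counts.

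The quasi-likelihood test of edgeR 4.0.16 (R 4.3.3) was used, with TMM scaling and 1 fit of all 18 libraries by group. filterByExpr by group left 15671 genes, which held 99.9% of counts. Benjamini-Hochberg adjustment ran over all tested genes, and a gene was called at an adjusted p under 0.05. Replicate numbers were tested together in a fit with group and number. CPM values are after TMM scaling; log2 CPM values have a prior count of 2. Standard errors were derived from the F statistic. Library totals of 15337511 to 21074229 counts limit the precision of genes near 1 CPM.

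The labels do not explain the numbers. They were taken to pair the samples because the deviations from the group means correlated positively in all 18 same-numbered pairs (r 0.4468 to 0.7286, mean 0.6025); the 90 other pairs averaged -0.1195 and ranged from -0.5351 to 0.6477, which overlaps the same-numbered pairs. For 14 of 18 libraries, those of their own number correlated best. The biological coefficient of variation was 17.9% without the number and 5.94% with it as a block. Libraries of a group differed beyond counting noise in all 45 pairs (chi-square over its degrees of freedom 2.8 to 35.3).

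The 32 genes, the pathway lists and the markers were chosen with earlier results of these data known. Named with full values are, per comparison of groups, the called genes and the 3 with the smallest p in each fit; between numbers, the 10 with the largest range; and of each pathway list up to 4 with the smallest p between numbers. Some genes under this rule are not reported here. Alternatives were the replicate block, DESeq2 1.42.0, DESeq2's size factors, no count filter, fits of only the groups compared, and libraries, numbers or groups left out. The scripts were tested on simulated data.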

Additional observations from a re-analysis of the deposited data

Results flagged for a closer look

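In each group of 6 libraries, the highest or lowest library of a gene was examined for a gap to its nearest neighbour that was wide beside the range of the group. Of 96 gene and group combinations 10 had such a gap. Chance gives about 1 in 20 for independent values, but many of these genes varied together and the groups share replicate numbers. The count of 10 is therefore a description and cannot be set against that rate. In 8 of the 10 the library was that of number 1. Srebf1 was at 272 CPM in mSc library 1, next to 144 in the nearest library of the group, and at 271 in Psmb8 library 1, next to 108. Scd1 was at 474 CPM in mSc library 1 and 506 in Psmb8 library 1, with neighbours at 128 and 165. Scd2 was at 4253 CPM in mSc library 1, next to 1854. Fads1 was at 531 CPM in mSc library 1 and 468 in Psmb5 library 1, next to 259 and 298, and Fads2 at 439.6 in mSc library 1, next to 187. The summed astrocyte markers were also highest in number 1 (5175 CPM on average, against 1839 to 2134 in the other numbers), and their part in these values was not tested. The other 2 were in Psmb8 library 4: Idi1 at 39.4 CPM, next to 18.03, and Nsdhl at 53.8, next to 25.7.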

How the results depend on the processing

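The fit with the replicate block called, over all genes, 1 in Psmb5 against mSc, 51 in Psmb8 against mSc and 6 in Psmb8 against Psmb5, and the fit without it called 1, 1 and 2. DESeq2 called 1, 2 and 4 genes without and 11, 135 and 23 with the replicate block. When libraries or numbers were left out, with or without the block, the counts were 1 to 3 in Psmb5 against mSc, 1 to 59 in Psmb8 against mSc and 2 to 20 in Psmb8 against Psmb5. Of the 32 genes 0 were called in any of these fits, except 1 (Stard4) in Psmb8 against Psmb5 with the block and without Psmb8 library 4, so that the count ranged from 0 to 1. The causes of these changes were not tested. DESeq2 with the block called Hsd17b12 and Gramd1a of the surrounding pathway lists in Psmb8 against mSc.

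The median log2 difference of the 32 genes ranged from -0.018 to 0.22 in Psmb5 against mSc, -0.054 to 0.23 in Psmb8 against mSc and -0.12 to 0.12 in Psmb8 against Psmb5 over all fits. In Psmb8 against Psmb5 it was 0.033 in the fit without the block, -0.10 without Psmb5 library 2 and -0.12 without Psmb8 library 4. Between replicate numbers 6852 (without group Psmb5) to 10450 genes were called and 30 to 32 of the 32; Lss, Pmvk and Insig2 are those that missed the threshold in some fits. Fits that leave out a number or a group have fewer libraries. Depth limited no gene of the list to a few counts, the lowest level being 4.64 CPM.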
